A study of Homo sapiens with 12 samples.

Results

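The serine/arginine-rich (SR) splicing factors were followed in RKO cells, a human colon cancer line, through 10 genes: SRSF1 to SRSF7, SRSF9 and the related TRA2A and TRA2B. They were chosen by family name, with earlier results of these data known, through 13 listed transcript identifiers, of which the 10 present, 1 for each gene, are members among the 19849 transcripts of the deposited tables. All cells had the wild-type genotype and were plated in full medium, then washed into arginine-free DMEM with dialyzed serum to which arginine was added back at 400 uM (fed) or 12.5 uM (starved) for 24 hours. RNA-seq and ribosome profiling, which sequences the mRNA fragments covered by ribosomes (footprints), were done concurrently with 3 libraries per group and assay, 12 in all. Separate cultures are not stated in the labels, so p-values here rest on a spread between libraries that could be technical.

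SR proteins carry RNA recognition motifs that bind short enhancer sequences in exons and an RS domain of repeated arginine-serine dipeptides through which they recruit the U1 and U2 parts of the spliceosome. Kinases of the SRPK and CLK families phosphorylate the RS domain, which controls where in the nucleus the protein sits, and several members also shuttle to the cytoplasm with mRNA. Many members limit their own level by splicing a premature stop (a poison exon) into their transcripts, which sends these to nonsense-mediated decay. The deposited counts give 1 transcript per gene, so isoforms with and without such exons were not analysed here.

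Levels are given in CPM, the usual scale of counts divided by the library total. Library totals ran from 4670881 to 7967215 counts for RNA and from 2063952 to 4364383 for footprints, and a member had between 233 and 4649 counts in an RNA library and between 49 and 1747 in a footprint library. Fold changes are starved over fed, from models fitted to all transcripts with TMM scaling factors, and a change was called at an adjusted p under 0.05. TMM factors were 1.037 to 1.041 in fed and 0.948 to 0.981 in starved RNA libraries, which makes fitted RNA changes less negative than ratios of CPM. With library totals alone the median RNA change of all transcripts was −0.12 on the log2 scale, against −0.012 with TMM factors. Footprint factors ran the other way, 0.960 to 0.9945 in fed and 0.996 to 1.019 in starved libraries. Fitted footprint changes are thus more negative than ratios of CPM (median 0.10 with totals, 0.053 with TMM factors). Both moves lower footprints against RNA. The test of footprints against RNA, given after the single genes, took TMM factors anew over the transcripts kept in both assays. Its median change was 0.052 with totals and −0.023 with those factors, which are not the ones listed here. A change here is one against the rest of its library, and in these bulk libraries fewer cells with a transcript and less of it per cell cannot be told apart. In 1 alternative, called abundance trend removed below, a smooth trend of each library's deviation with transcript abundance was taken out before testing. The identifiers matched none of the gene tables used here (0 of 19849), so the epithelial label was not checked on marker genes, and SR kinases, other SR proteins and decay factors were not analysed here. Transcript lengths are not used here, so levels are compared between conditions for each gene and not between genes.

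Arginine starvation lowered the RNA of most of the family and the ribosome footprints of most of it. RNA fell for 8 of the 10 and rose for 0, in the quasi-likelihood F test of edgeR (p-values adjusted by the Benjamini-Hochberg method), while 34.1% of all 11572 tested transcripts were called lower and 33.8% higher. Footprints fell on 8 of the 10 and rose on 0, while 20.9% of all 13457 tested transcripts were called lower and 18.9% higher. No member had an unadjusted p under 0.05 with a positive change in either assay, and DESeq2 and limma-voom also called 0 higher. Over all transcripts DESeq2 called 3582 higher in RNA and 1874 in footprints, and limma-voom 3919 and 2497. The median log2 fold change over the members was −0.37 for RNA and −0.73 for footprints, against −0.012 and 0.053 over all tested transcripts. Both assays fell for 6 members (SRSF2, SRSF3, SRSF4, SRSF5, SRSF7 and TRA2B), a pattern found in 18.9% of the 11027 transcripts tested in both. SRSF6 and TRA2A lost footprints without a called RNA change, as did 4.67% of all, and SRSF1 and SRSF9 lost RNA without a called footprint change, as did 14.4% of all.

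Together the members held 0.246 ± 0.005% of the RNA counts of fed cells and 0.179 ± 0.00951% of those of starved cells (SD, n = 3). Their part of the footprints was 0.224 ± 0.0124% in fed cells and 0.160 ± 0.0242% in starved cells (SD, n = 3). The starved libraries lay below the fed ones in both assays, at 0.168% to 0.185% against 0.242% to 0.251% of RNA and at 0.133% to 0.178% against 0.212% to 0.236% of footprints. Starved footprint replicate 1 held the lowest value of its group for all 10 members. Without it the family's share of starved footprints was 0.174%, and the median log2 fold change of the members was −0.63. In that fit 8 members were still called lower in footprints, against 19.6% of all tested transcripts. Starved RNA replicate 1 held the lowest value of its group for 8 members and the highest for 0. Without it the family's share of starved RNA was 0.1845%, and the median log2 fold change of the members was −0.32. In that fit 8 members were called lower in RNA, against 31.4% of all tested transcripts.

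**Figure D1:**
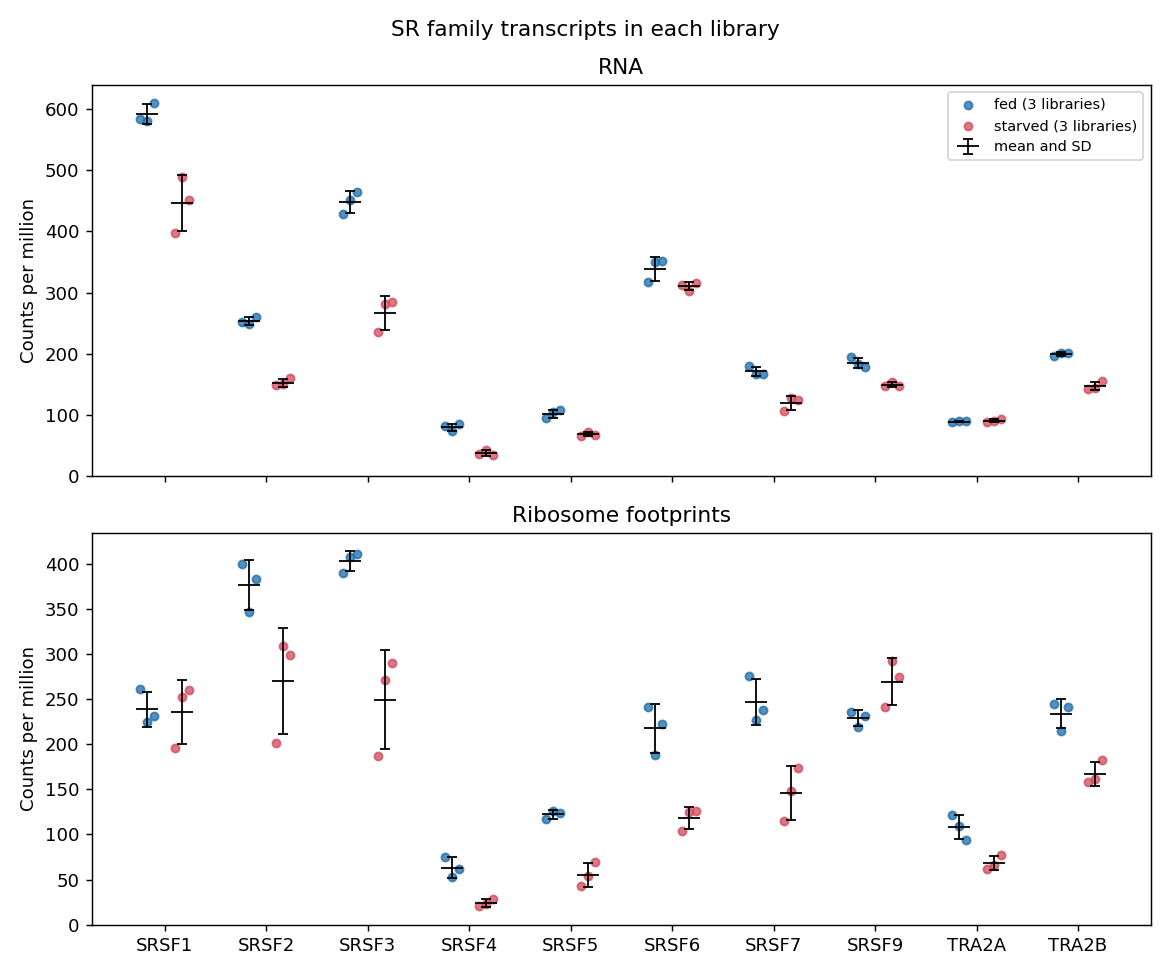
CPM (linear axes from 0) of the 10 SR family transcripts in every RNA library (top) and footprint library (bottom); points are libraries, black bars the mean and SD of 3. Starved points lie below all fed points for 9 members in RNA and 8 in footprints, while TRA2A overlaps in RNA, SRSF1 overlaps in footprints and SRSF9 footprints lie above.

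In RNA, the starved libraries all lay below the fed ones in CPM for 9 members, against 41.2% of tested transcripts, and TRA2A was the exception; all above was found for 0 members and 28.6% of tested transcripts. In footprints they all lay below for 8 members, against 24% of tested transcripts, and all above for SRSF9, against 26.6%. The groups of SRSF1 overlapped in footprints.

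SRSF1, SRSF3 and SRSF7 are shuttling SR proteins that also act in mRNA export. SRSF1 (ENST00000258962), the prototype of the family and a known proto-oncogene, had RNA levels of 584, 580.4 and 610.1 CPM in the fed libraries and 397, 488 and 452 CPM in the starved libraries. Its RNA fell by a modest amount (log2 fold change −0.30, SE 0.072, edgeR adjusted p = 0.00024). Its footprint levels were 261, 225 and 231 CPM in the fed libraries and 196, 252 and 259.7 CPM in the starved libraries. These overlapped, and no footprint change was called (log2 fold change −0.067, SE 0.13, edgeR adjusted p = 0.714), with a 95% interval of −0.36 to 0.22. SRSF1 was therefore less abundant as RNA, while a footprint fall or a rise within that interval was not detectable at this spread.

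SRSF3 (ENST00000373715), a short SR protein that serves as an adaptor for mRNA export, was lower in starved cells in both assays. Its RNA levels were 428, 451 and 464 CPM in the fed libraries and 235, 281 and 285 CPM in the starved libraries. The RNA groups were far apart, with starved RNA at 64.4% of fed in the fit (log2 fold change −0.63, SE 0.072, edgeR adjusted p = 7.02e-12). Its footprints were 390.0, 408 and 411 CPM in the fed libraries and 187, 271 and 290.1 CPM in the starved libraries. They fell by a similar amount (log2 fold change −0.74, SE 0.15, edgeR adjusted p = 0.00233), with starved replicate 1 well below the other starved libraries.

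SRSF7 (ENST00000313117), which has a zinc knuckle beside its RNA recognition motif and also acts in export and 3′ end processing, fell in both assays. RNA was 180.2, 167 and 167 CPM in the fed libraries and 107, 127 and 125 CPM in the starved libraries (log2 fold change −0.41, SE 0.072, edgeR adjusted p = 1.33e-06). Footprints were 276, 227 and 238 CPM in the fed libraries and 115, 148 and 174 CPM in the starved libraries, which gives 57.2% of fed (log2 fold change −0.81, SE 0.15, edgeR adjusted p = 0.00128). The difference between the assays was not called (interaction −0.32, edgeR adjusted p = 0.152).

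SRSF2 (ENST00000359995), also known as SC35 and used as a marker of nuclear speckles, had RNA levels of 252, 248 and 260.5 CPM in the fed libraries and 148, 150.3 and 160.4 CPM in the starved libraries. RNA replicates were tight, and starved RNA was 65.2% of fed (log2 fold change −0.62, SE 0.069, edgeR adjusted p = 5.07e-12). Its footprints were 400.3, 346 and 383 CPM in the fed libraries and 202, 309 and 299 CPM in the starved libraries, a fall of like size (log2 fold change −0.53, SE 0.15, edgeR adjusted p = 0.0174). The footprint call was lost with the abundance trend removed (−0.38, edgeR adjusted p = 0.0639) and without fed footprint replicate 1 (−0.50, edgeR adjusted p = 0.0506).

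SRSF4, SRSF5 and SRSF6 are close relatives with tandem RNA recognition motifs, and they had the 3 largest fitted falls of footprints. SRSF4 (ENST00000373795) had the largest fall of the family in both assays. Its RNA levels were 81.3, 73.7 and 84.8 CPM in the fed libraries and 35.9, 42.8 and 34.4 CPM in the starved libraries, so starved RNA was 50.6% of fed (log2 fold change −0.98, SE 0.088, edgeR adjusted p = 1.68e-15). Its footprints were 75.4, 52.3 and 61.4 CPM in the fed libraries and 21, 22.6 and 28.7 CPM in the starved libraries, or 37% of fed (log2 fold change −1.43, SE 0.17, edgeR adjusted p = 4.87e-05). The starved footprint values rest on 49, 64 and 105 counts, the fewest of any member, and still lay far below the fed range.

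SRSF5 (ENST00000394366), known for splicing controlled by insulin, fell in both assays, and further in footprints by the efficiency test given after the single genes. Its RNA was 95, 104 and 108 CPM in the fed libraries and 65.8, 71.9 and 67.6 CPM in the starved libraries (log2 fold change −0.47, SE 0.077, edgeR adjusted p = 3.13e-07). Its footprints were 117, 126 and 124 CPM in the fed libraries and 42.8, 53.4 and 69.4 CPM in the starved libraries (log2 fold change −1.18, SE 0.16, edgeR adjusted p = 0.000143). Starved footprints were thus 44% of fed in the fit, while starved RNA was 72.4% of fed.

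SRSF6 (ENST00000244020), known from skin and colon tissue as an oncogenic splicing factor, lost footprints with little difference in RNA. Its RNA levels were 316, 350.0 and 351 CPM in the fed libraries and 312, 303 and 316 CPM in the starved libraries. In CPM the starved libraries lay just under the fed ones, but with TMM factors no RNA change was called (log2 fold change −0.013, SE 0.069, edgeR adjusted p = 0.882; 95% interval −0.15 to 0.12). With the abundance trend removed its RNA was called lower (−0.18, edgeR adjusted p = 0.0139). Its footprints were 242, 188 and 223 CPM in the fed libraries and 104, 125 and 126 CPM in the starved libraries, and starved footprints were 52.5% of fed (log2 fold change −0.93, SE 0.13, edgeR adjusted p = 0.000194).

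SRSF9 (ENST00000229390), which resembles SRSF1 but has a short RS domain, was the 1 member with higher footprint values in all starved libraries. Its RNA was 194, 183 and 178 CPM in the fed libraries and 147, 154 and 148 CPM in the starved libraries, a small called fall (log2 fold change −0.19, SE 0.069, edgeR adjusted p = 0.0108). That RNA fall was −0.31 with library totals alone and −0.37 with the abundance trend removed. It came close to the threshold without fed RNA replicate 1 (−0.15, edgeR adjusted p = 0.0478). The same held without starved RNA replicate 3 (−0.19, edgeR adjusted p = 0.0492). The fall was called in all 14 alternatives. Its footprints were 236, 219 and 231 CPM in the fed libraries and 242, 292 and 274 CPM in the starved libraries. The positive footprint difference did not pass its test (log2 fold change 0.19, SE 0.12, edgeR adjusted p = 0.224; 95% interval −0.069 to 0.45), except with the abundance trend removed (0.35, edgeR adjusted p = 0.0264).

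TRA2A and TRA2B, the human relatives of the fly sex determination factor Transformer-2, bind GAA-rich enhancers and carry RS domains on both sides of their RNA recognition motif. TRA2A (ENST00000297071) had the flattest RNA of the family in CPM, at 88.4, 89.9 and 89.5 CPM in the fed libraries and 89.2, 90.8 and 93.2 CPM in the starved libraries. The groups overlapped and no RNA change was called (log2 fold change 0.14, SE 0.075, edgeR adjusted p = 0.0857). Its footprints were 121, 109 and 93.9 CPM in the fed libraries and 61.2, 66.5 and 76.8 CPM in the starved libraries, a clear separation (log2 fold change −0.71, SE 0.14, edgeR adjusted p = 0.00168). Its paralog TRA2B (ENST00000453386), the better known activator of SMN exon inclusion, had RNA of 197, 201 and 202 CPM in the fed libraries and 143, 144 and 155 CPM in the starved libraries (log2 fold change −0.33, SE 0.069, edgeR adjusted p = 3.52e-05). Its footprints were 245, 215 and 241 CPM in the fed libraries and 158, 162 and 182 CPM in the starved libraries (log2 fold change −0.53, SE 0.12, edgeR adjusted p = 0.00348). With the abundance trend removed TRA2B RNA stood at −0.51. TRA2B thus fell in both assays, while TRA2A fell in footprints.

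**Figure D2:**
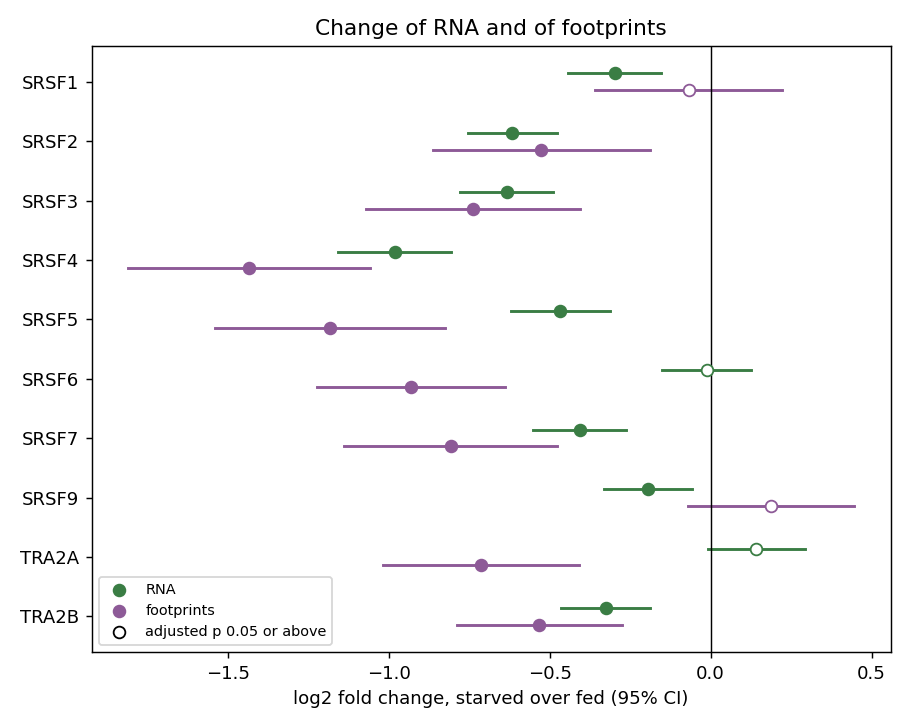
Fitted log2 fold change of each member, starved over fed, for RNA (green) and footprints (purple), with 95% confidence intervals (3 libraries per group and assay); open circles did not pass an adjusted p of 0.05. Footprints of SRSF4, SRSF5 and SRSF6 lie at −1.43, −1.18 and −0.93, while SRSF6 RNA lies near 0 and SRSF9 footprints lie at 0.19.

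Translational efficiency compares the footprints of a transcript with its RNA, and its change was the assay-by-treatment interaction in 1 model of all 12 libraries. That model took its own TMM factors within each assay, over the transcripts kept in both. Its values are therefore not exactly the footprint change minus the RNA change given above. For SRSF6 it gave −0.83, beside −0.93 for footprints and −0.013 for RNA. For SRSF9 it gave 0.47, beside 0.19 for footprints and −0.19 for RNA. Calls differed between the members. Efficiency fell for SRSF5, SRSF6 and TRA2A, rose for SRSF9, and was not called for the other 6. The test was the quasi-likelihood F test of edgeR (p-values adjusted by the Benjamini-Hochberg method). Of the 11027 transcripts tested, 11.7% were called lower and 11.1% higher, 1292 and 1227 transcripts. That split moved with the scaling, to 870 lower and 1472 higher with library totals alone and to 2075 lower and 906 higher with TMM factors taken before the filter on low counts. As a count, the 1 of 10 members called higher is near the 11.1% of all transcripts. The 3 of 10 called lower are set beside transcripts of like abundance below. The median log2 fold change of efficiency was −0.22 over the members and −0.023 over all tested transcripts. Footprint counts measure how many ribosomes sit on a transcript, so slower ribosomes are counted more often, and the tables hold no positions within transcripts with which occupancy at arginine codons could be measured.

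SRSF6 had the largest fall of efficiency (log2 fold change −0.83, SE 0.13, edgeR adjusted p = 0.000196). Its footprint CPM over RNA CPM, taken from group means, went from 0.642 in fed to 0.38 in starved cells. TRA2A followed (log2 fold change −0.77, SE 0.14, edgeR adjusted p = 0.000411), with a ratio of 1.21 in fed and 0.748 in starved cells. SRSF5 came next (log2 fold change −0.62, SE 0.16, edgeR adjusted p = 0.00785), with 1.19 and 0.807. These 3 were called lower under every alternative tried, with log2 fold changes between −0.97 and −0.61 for SRSF6, between −0.91 and −0.63 for TRA2A and between −0.81 and −0.49 for SRSF5.

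SRSF9 moved the other way (log2 fold change 0.47, SE 0.12, edgeR adjusted p = 0.00692), with footprint CPM over RNA CPM of 1.24 in fed and 1.8 in starved cells. Its call was lost when TMM factors were taken over all transcripts before the filter on low counts (0.33, edgeR adjusted p = 0.0738) and with no filter (0.37, edgeR adjusted p = 0.0531). Its value was positive under every alternative tried, from 0.33 to 0.73.

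The other 6 members had no called change of efficiency, which does not show that they were unchanged. The 95% intervals of SRSF1 and SRSF2 reached above the SRSF9 value of 0.47, and those of SRSF4 and SRSF7 below the SRSF5 value of −0.62. SRSF1 had a positive value (log2 fold change 0.31, SE 0.14, edgeR adjusted p = 0.113; 95% interval 0.023 to 0.60), which was called higher with the abundance trend removed (0.53, edgeR adjusted p = 0.00973) and without starved footprint replicate 1 (0.40, edgeR adjusted p = 0.0217). SRSF2 stood at 0.17 (−0.15 to 0.50) and SRSF3 at −0.018 (−0.35 to 0.32), with edgeR adjusted p of 0.458 and 0.956. SRSF2 was called higher with the abundance trend removed (0.44, edgeR adjusted p = 0.0491). SRSF4 stood at −0.38 (−0.76 to 0.002) and SRSF7 at −0.32 (−0.64 to 0.0081), with edgeR adjusted p of 0.144 and 0.152. SRSF4 was called lower with TMM factors before the filter (−0.51, edgeR adjusted p = 0.0498), and SRSF7 without starved footprint replicate 3 (−0.45, edgeR adjusted p = 0.0397). SRSF4 stood at −0.21 without fed footprint replicate 1 (edgeR adjusted p = 0.457). SRSF7 stood at −0.20 without starved footprint replicate 1 (edgeR adjusted p = 0.29) and at −0.085 with the abundance trend removed (edgeR adjusted p = 0.742). Over all alternatives tried, efficiency ran from 0.18 to 0.53 for SRSF1, from 0.042 to 0.44 for SRSF2, from −0.52 to −0.21 for SRSF4 and from −0.45 to −0.085 for SRSF7. TRA2B stood at −0.12 (−0.37 to 0.13, edgeR adjusted p = 0.498).

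**Figure D3:**
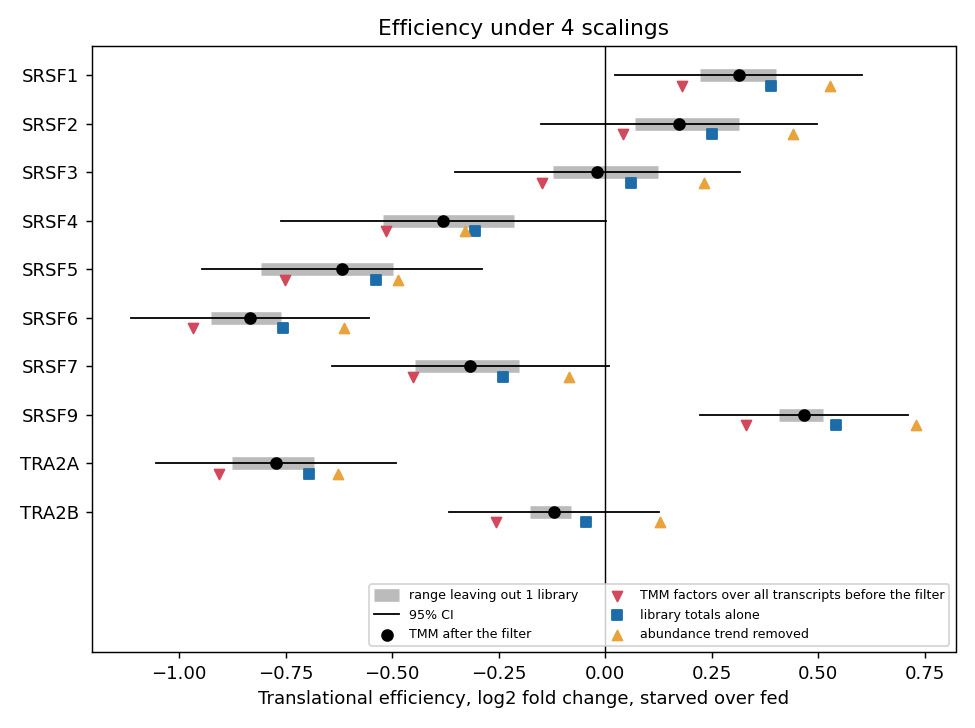
Change of translational efficiency of each member (log2, starved over fed) with its 95% interval, the range when any 1 of the 12 libraries was left out (grey), and the values under 3 other scalings (coloured marks). SRSF5, SRSF6 and TRA2A lie below 0 and SRSF9 above 0 under all of them. Values of SRSF4 and SRSF7 also stay below 0 and those of SRSF1 and SRSF2 above 0, though not called with TMM after the filter. SRSF3 and TRA2B change sign with the abundance trend removed, and SRSF3 also with library totals alone.

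The members are abundant transcripts, and efficiency values depended on abundance across the whole table. Ranked by mean RNA count level into 5 bins of about 2205 transcripts, 7 members were in the most abundant bin and 3 in the next. Efficiency was called lower for 24.8% and 16.5% of the transcripts of those bins, and its median log2 fold change there was −0.16 and −0.11. As a count, the 3 of 10 members called lower are near those shares. With a smooth abundance trend removed from each library, the median of the members was 0.023, against −0.027 over all transcripts. Then 3 members were called higher (SRSF1, SRSF2 and SRSF9), and SRSF5, SRSF6 and TRA2A were called lower. In that fit 1125 of all 11027 transcripts were called higher and 1018 (9.23%) lower. The direction of the family's median in efficiency thus depended on the scaling, while the falls of SRSF5, SRSF6 and TRA2A did not.

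The make-up of the family's counts differed between fed and starved cells. SRSF9 went from 10.2 ± 0.212% to 16.9 ± 1.41% of the family's footprints and SRSF1 from 10.7 ± 0.365% to 14.7 ± 0.0984% (SD, n = 3). The share of SRSF5 went from 5.48 ± 0.501% to 3.42 ± 0.42%, that of SRSF4 from 2.80 ± 0.362% to 1.51 ± 0.155% and that of SRSF6 from 9.70 ± 0.695% to 7.40 ± 0.375% (SD, n = 3). Over all 10 members, the footprint shares of fed and starved libraries did not overlap for 7, higher in starved cells for 2 (SRSF1 and SRSF9) and lower for 5 (SRSF3, SRSF4, SRSF5, SRSF6 and SRSF7). The RNA shares did not overlap for 6, higher for 2 (SRSF6 and TRA2A) and lower for 4 (SRSF2, SRSF3, SRSF4 and SRSF5). In RNA, SRSF6 went the other way, from 13.8 ± 0.614% to 17.4 ± 1.12%, and TRA2A went from 3.63 ± 0.0609% to 5.09 ± 0.202% (SD, n = 3). Shares within the family sum to 100%, so a rise of 1 share can come from falls of the others. Such shares have no counterpart over all transcripts. In CPM, groups without overlap were common: 41.2% of tested transcripts lay all below and 28.6% all above in RNA. In footprints these were 24% and 26.6%. The counts of members without overlap are therefore a description and do not mark the family.

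**Figure D4:**
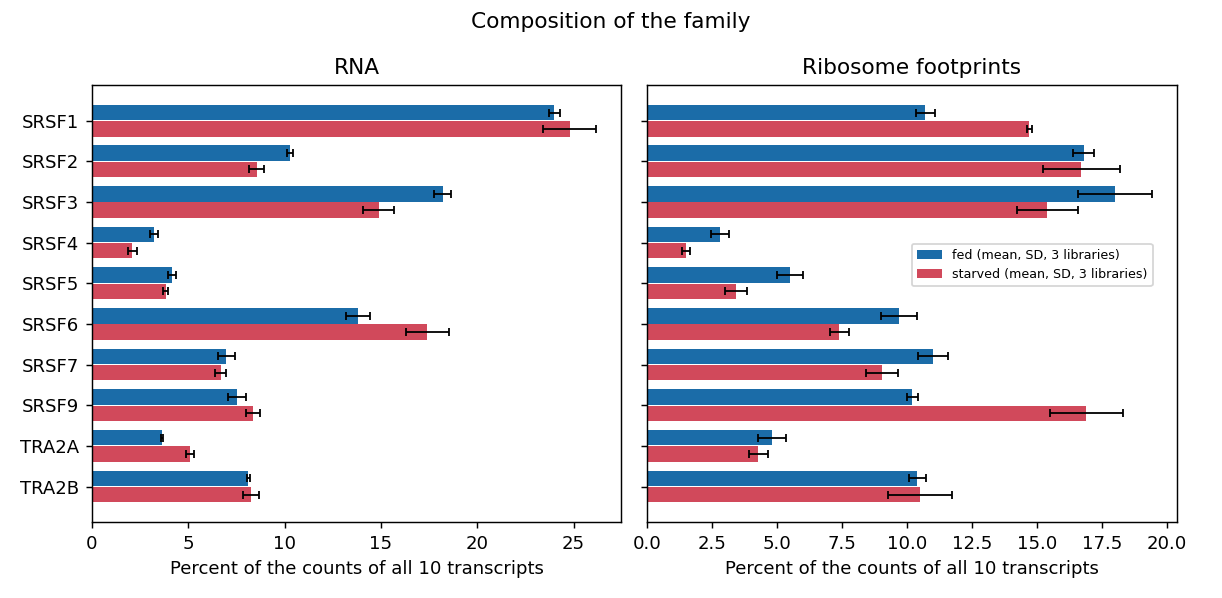
Percent of the summed counts of the 10 transcripts held by each member, in RNA (left) and footprints (right); bars are means and error bars the SD of 3 libraries. SRSF9 goes from 10.2% to 16.9% of footprints with starvation, and SRSF6 goes from 13.8% to 17.4% of RNA and from 9.70% to 7.40% of footprints.

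Since the RNA of most members fell, the 200 bases before the annotated start of the gene are shown for 3 members that differ in RNA change: SRSF4 with the largest fall (−0.98), SRSF3 with the next (−0.63) and SRSF6 with no called change. Sequences are from RefSeq, build GRCh38.p14, 5′ to 3′ on the gene's strand, which had a promoter entry for 8 of the 10 members. Capitals mark matches to any of 6 motifs searched on both strands: the cAMP response element half-site TGACGT, the amino acid response element TGATGNAAN bound by ATF4, the E-box CACGTG, the GC box GGGCGG, the TATA box TATAAA and the CCAAT box.
SRSF4, chr1:29181901-29182100, minus strand: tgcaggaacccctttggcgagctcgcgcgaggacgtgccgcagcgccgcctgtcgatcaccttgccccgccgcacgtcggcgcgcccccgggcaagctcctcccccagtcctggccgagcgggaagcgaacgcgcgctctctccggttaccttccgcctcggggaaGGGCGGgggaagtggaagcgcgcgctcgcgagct
SRSF3, chr6:36594162-36594361, plus strand: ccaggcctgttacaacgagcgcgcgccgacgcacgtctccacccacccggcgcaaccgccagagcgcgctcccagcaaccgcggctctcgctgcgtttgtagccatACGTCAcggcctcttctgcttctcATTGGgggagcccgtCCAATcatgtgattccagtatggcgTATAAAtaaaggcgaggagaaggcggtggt
SRSF6, chr20:43457696-43457895, plus strand: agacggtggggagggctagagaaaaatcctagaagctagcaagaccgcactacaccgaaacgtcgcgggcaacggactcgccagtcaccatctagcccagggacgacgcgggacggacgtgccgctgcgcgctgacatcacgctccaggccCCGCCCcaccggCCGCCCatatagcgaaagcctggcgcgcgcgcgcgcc

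The motif list was chosen after the sequences had been seen, and the matches are a description. The windows of the 8 members held 57.0% to 73.5% G and C, and the RefSeq windows set beside them were not matched on this. The half-site TGACGT was present in 4 of the 8 windows (SRSF1, SRSF3, SRSF5 and TRA2B), against 6.32% of 35116 RefSeq promoter windows of the same length. RNA fell for all 4. Among the 4 members whose windows lack it, RNA fell for SRSF4, SRSF7 and SRSF9 and was not called for SRSF6. TGATGNAAN was found in 0 of 8 windows and in 2.56% of all, and CACGTG in 0 of 8 and in 5.49% of all. GGGCGG was in 4 of 8 windows (SRSF4, SRSF6, SRSF7 and TRA2B) and in 40.1% of all. The SRSF3 window alone among the 8 held TATAAA, found in 8.59% of all, and CCAAT, found in 28.0% of all.

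Reads of some members can be shared with other loci. RefSeq names pseudogenes of SRSF3 (5), SRSF6 (2), SRSF1, SRSF2 and SRSF9 (1 each), and protein-coding genes overlap SRSF2 (MFSD11), SRSF4 (MECR) and SRSF9 (GATC). Genes of long non-coding RNAs overlap SRSF1 and SRSF5, and a microRNA gene overlaps SRSF2. How reads at such loci were assigned, and whether strand was used, is not given in the sources used here, so the values of these members are uncertain to that extent.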

How the data were processed

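RNA-seq and ribosome profiling libraries of RKO cells were analysed from 2 tables of whole-number counts per transcript that the authors deposited without normalization. The build GRCh38.p13 and the tools STAR, cutadapt, UMI-tools and DESeq2 are named, without roles, per the submitters' processing notes. Per the labels' protocols, a TruSeq kit was used for RNA and RiboCop for depletion of ribosomal RNA. The counting tool, the annotation release and the counted region are not stated, so footprints outside coding sequences may be included. Gene names of the members come from the list that defines the family.

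Counts were tested in R 4.3.3 with edgeR 4.0.16 (two-sided quasi-likelihood F test, with Benjamini-Hochberg adjustment over all transcripts tested), with filterByExpr and then TMM factors. Each assay was fitted with treatment alone, and efficiency as the interaction over 12 libraries. For efficiency, TMM factors were computed anew within each assay over the transcripts kept in both. Intervals are 95% intervals of the fit. Scripts were tested on simulated data. Members, lists and alternatives were chosen with earlier results of these data known, and all 10 members are named. Alternatives were other scalings, removal of a loess abundance trend (span 0.3), no filter, the Wald test of DESeq2 1.42.0, voom in limma 3.58.1, replicate blocks and leaving out each library. Protein features and levels per length were planned and are not analysed here. No 2 replicates held identical values.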

Additional observations from a re-analysis of the deposited data

Results flagged for a closer look

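The change with starvation differed between footprints and RNA, by the interaction test over 12 libraries, for 4 members. The interaction value on the log2 scale was −0.83 for SRSF6, −0.77 for TRA2A, −0.62 for SRSF5 and 0.47 for SRSF9. In that order, edgeR adjusted p was 0.000196, 0.000411, 0.00785 and 0.00692. These are the efficiency changes described above, not a separate test. They rest on TMM factors taken over the transcripts kept in both assays. They are therefore not exact differences of the single-assay changes. TRA2A and TRA2B are paralogs with similar footprint falls, −0.71 and −0.53, but RNA values of 0.14 and −0.33; the difference between the 2 genes was not tested.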

How the results depend on the processing

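Over 140 refits of member values in RNA, 140 in footprints and 210 in efficiency, the direction and side of the threshold stayed in 136, 135 and 197. Signs turned for SRSF6 RNA, SRSF1 footprints, and SRSF3 and TRA2B efficiency, for which no change was called. Leaving out 1 library at a time, SRSF6 RNA ran from −0.060 to 0.025, SRSF1 footprints from −0.13 to 0.028 and SRSF3 efficiency from −0.12 to 0.12. SRSF1 footprints were 0.086 with the abundance trend removed, SRSF3 efficiency was 0.061 with library totals alone and 0.23 with the trend removed, and TRA2B efficiency was 0.13 with the trend removed. With the trend removed 1 member was called higher in footprints and 3 in efficiency, against 2572 of 13457 and 1125 of 11027 transcripts. With TMM factors before the filter, an alternative chosen after seeing the data, 0 were called higher in efficiency, against 906 of 11027 transcripts. With no filter 0 were called higher in efficiency, against 1032 of 15054 transcripts. The causes were not tested. Over all transcripts, 2075 were called lower in efficiency with TMM factors before the filter, against 1292. Leaving out 1 library gave 8 to 8 lower in RNA, 7 to 8 in footprints, and 3 to 4 lower and 1 to 2 higher in efficiency. In those fits 30.7% to 33% of all transcripts were called lower in RNA, 17% to 19.6% in footprints and 8.59% to 11.8% in efficiency. Between 957 and 1242 transcripts were called higher in efficiency. With the 10 most abundant transcripts left out of the total, the family's share was 0.286% of fed and 0.207% of starved RNA. Of footprints it was 0.238% in fed and 0.175% in starved libraries. Same-numbered fed and starved libraries did not deviate together (r from −0.014 to 0.087 in RNA and −0.21 to −0.027 in footprints), nor did same-numbered RNA and footprint libraries (−0.011 to 0.11); 2 of 3 fed RNA and 0 of 3 fed footprint libraries correlated best with the starved library of their own number. With the replicate number as a block, 8 members were called lower in RNA, 8 in footprints and 3 in efficiency, against 34.5%, 18.6% and 9.62% of all transcripts. In efficiency 1 was called higher, against 1072 of 11027 transcripts. The block pairing RNA and footprint libraries gave the same 3 and 1, against 1285 lower and 1209 higher. Footprint spread limits what can be seen: the median standard error over members was 0.15 for footprints and for efficiency and 0.072 for RNA.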
